A study of Mus musculus with 6 samples.

Results

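The comparison set wild-type bone marrow-derived mast cells grown on Lpar1-/- Swiss 3T3 fibroblasts against the same kind of mast cells grown on Lpar1+/+ Swiss 3T3 fibroblasts. Its members were the 2 arrays, of 6 in the series, whose titles name these fibroblasts, 1 array on each side. On Lpar1-/- fibroblasts the mast cell fraction had far lower levels of Tnf and of several connective tissue mast cell genes, among them Mrgprb1, Tpsab1 and Hdc. Genes of the immediate early response, of the feedback on ERK signalling, of the cell cycle and of cholesterol synthesis were also mostly lower. The mucosal-type proteases Mcpt1 and Mcpt2, the receptor Lpar6 and single genes such as Thy1, Dlk1 and Actg2 were higher. Fibroblast and matrix genes as a list went both ways, with 13 of 47 higher and 6 lower. So did targets of YAP and of serum response factor, with 7 of 32 higher and 5 lower. Over all compared genes 11.3% were higher and 8.84% lower.

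Lysophosphatidic acid is a small signalling lipid made from membrane phospholipids. Phospholipases A2 such as Pla2g3 release lysophospholipids, the secreted enzyme autotaxin (Enpp2) converts them to lysophosphatidic acid, and cells sense the product through G protein-coupled receptors, of which Lpar1 is a major one on fibroblasts. Mast cells grown from marrow in interleukin-3 are immature, and contact with fibroblasts in the presence of stem cell factor, the ligand of Kit, moves them towards the connective tissue type, which stores heparin, histamine, chymases and tryptases and carries Mas-related G protein-coupled receptors. The comparison addresses what the loss of Lpar1 from the fibroblasts does to the RNA of these cells.

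Both arrays held RNA of wild-type mouse mast cells raised in interleukin-3 (10 ng/ml) and kept for 4 days on a layer of Swiss 3T3 cells, an established mouse embryo fibroblast line, with stem cell factor (100 ng/ml). The Pla2g3 genotype of these mast cells is not stated beyond wild type. The Lpar1-/- fibroblasts were made by CRISPR/Cas9 and single-cell cloning, per the labels, so the Lpar1 genotype and any other property of the cloned line cannot be told apart; the labels do not say whether the Lpar1+/+ cells were cloned too. The other 4 arrays held Pla2g3+/+ mast cells and mast cells labelled Pla2g3-/-, each without fibroblasts and in coculture with unmodified Swiss 3T3 cells. For the cultures without fibroblasts the labels give interleukin-3 (10 ng/ml) but no stem cell factor and no 4-day period. Fibroblasts, stem cell factor and culture period therefore cannot be told apart where a coculture is set against cells alone. Each array held RNA pooled from 3 samples. Pooling hides how far cultures differ, and no condition had a replicate. No p-value can therefore be given, and "higher" and "lower" below mean a difference of at least 2-fold between these arrays. Per the protocols, mast cells were taken after coculture either as nonadherent cells after trypsin or with beads against CD117; which of these gave the arrayed RNA is not stated.

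Levels are log2 values of the processed spot intensity over the 75th percentile of the same array, so a difference of 1 is 2-fold. Levels of different genes come from different probes and are not set against each other. The scanner software's own error for a difference between the 2 arrays was 0.20 on the log2 scale at the median and covers the spots, not the cultures. The nearest thing to a replicate was the Pla2g3+/+ coculture, a separate wild-type coculture scanned in the same run as the 2 Lpar1 arrays. The 2 wild-type cocultures differed with an SD of 0.29 (log2) over 23999 genes, 95% of which lay within 0.62, while the Lpar1-/- and Lpar1+/+ arrays differed with an SD of 0.97 over 24533 genes. Between 70.7% and 80.4% of spots stood well above background on the 6 arrays, and no spot was saturated. One label is in doubt: the brightest Pla2g3 probe read -6.31 and -7.31 in Pla2g3+/+ cells but 0.51 and -1.84 in the cells labelled Pla2g3-/-, so that array is called the labelled Pla2g3-/- coculture throughout. The 2 cultures without fibroblasts were scanned in a separate run from the 4 cocultures.

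Of 29596 genes on the array, 24533 had their brightest probe well above background on at least 1 of the 2 arrays. On Lpar1-/- fibroblasts, 2768 of these (11.3%) were higher and 2169 (8.84%) were lower than on Lpar1+/+ fibroblasts. Against both wild-type cocultures at once, 2345 genes (9.56%) lay at least 2-fold above the higher and 1843 (7.51%) at least 2-fold below the lower. The 2 wild-type cocultures differed at least 2-fold at 191 genes in one direction and 40 in the other. Differences of at least 8-fold between the Lpar1-/- and Lpar1+/+ arrays were seen at 207 genes that were higher and 193 that were lower, and the median of all genes was -0.05. The size of a fold is less sure than its direction where 1 side is dim. Of 197 named genes past 2-fold, 72 had a fold more than 1.5 times smaller with normexp background correction, which adds 50 to every spot; the values are given below beside the genes concerned. Over all genes 11.3% were higher and 8.84% lower, and a list with shares close to these is no result about that list.

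**Figure D1:**
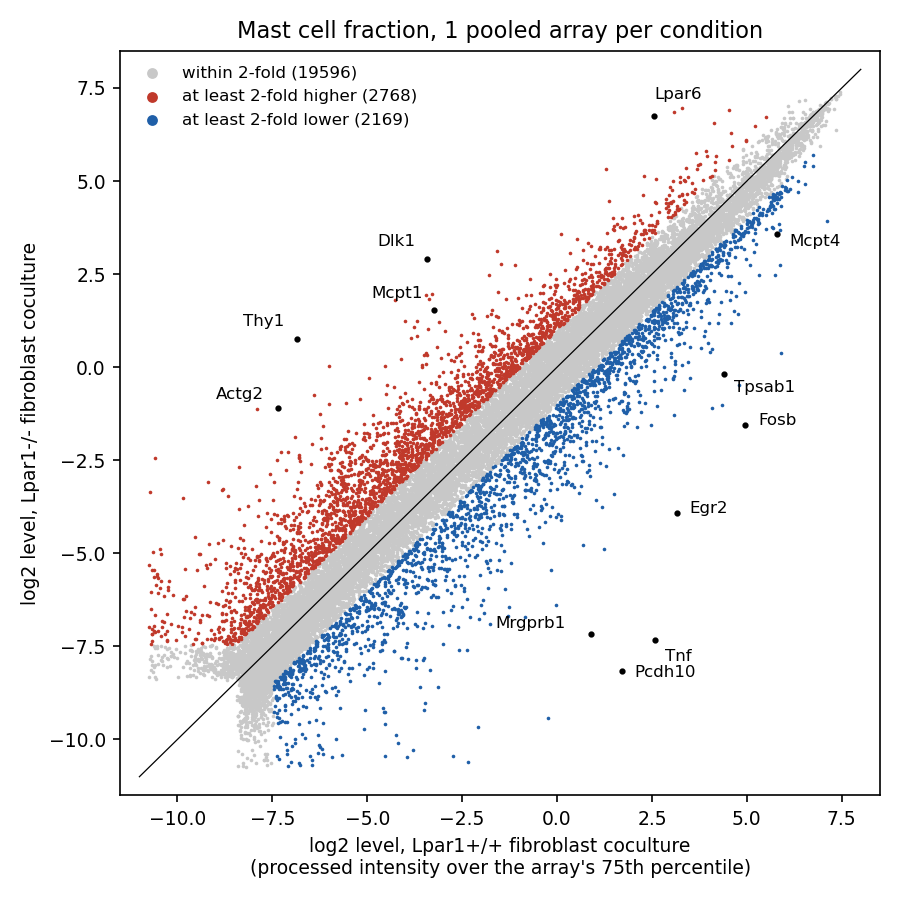
Each point is 1 of 24533 genes, with its log2 level on Lpar1+/+ fibroblasts on the x axis and on Lpar1-/- fibroblasts on the y axis, both relative to the array's 75th percentile; the line marks equal levels, and dim values are drawn as measured. Red marks 2768 genes at least 2-fold higher, blue 2169 at least 2-fold lower (a dim side is counted at its bound); Thy1, Dlk1 and Mcpt1 lie above the line, and Tnf, Mrgprb1 and Egr2 lie far below it.

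The Lpar1 transcript itself did not distinguish the arrays. Its 1 probe (chr4:58499672-58499731, mm9) read -4.14 on Lpar1+/+ and -3.89 on Lpar1-/- fibroblasts, -4.34 and -3.58 in the other cocultures, and -2.84 and -2.85 in mast cells without fibroblasts. The level was thus highest where no fibroblast was present. The guide cut beside an exon, and the place of the probe relative to the edited stretch was not determined, so this value does not check the label.

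Of 24 compared genes of lysophosphatidic acid and phospholipase A2 biology, 4 were higher (16.7%) and 5 lower (20.8%), with a median of 0.14. Among receptors, Lpar6 stood at 6.48 and 6.52 in mast cells alone, 2.91 and 2.56 in the wild-type cocultures, 7.0 in the labelled Pla2g3-/- coculture and 6.76 on Lpar1-/- fibroblasts. Both wild-type cocultures were low and the other 4 arrays high, and the difference between the 2 Lpar1 arrays was 18.4-fold. Lpar4 read -2.94 and -2.46 in the wild-type cocultures and -5.94 on Lpar1-/- fibroblasts, 11.2-fold lower than on Lpar1+/+ cells. Lpar2 was 4.63-fold lower, and Lpar5 differed by 0.31. Among enzymes, the secreted phospholipase Pla2g2e was 20.2-fold lower. With normexp the folds of Lpar2, Lpar4 and Pla2g2e were 2.54, 4.01 and 3.02, and that of Pla2g2e was 8.96 with the mean of probes. Plpp2, a phosphatase that degrades lysophosphatidic acid, was 2.97-fold lower, and Pafah1b1 was 2.11-fold lower. Pla2g7 and the lysosomal Pla2g15 were 2.58-fold and 2.82-fold higher. The autotaxin gene Enpp2 read -4.85 on Lpar1+/+ and -4.56 on Lpar1-/- fibroblasts. Pla2g3 read -6.58 and -4.85 with its brightest probe, 3.34-fold higher, but another probe differed by -0.24 and the third was not well above background on either array; the difference fell to 0.61 with normexp background correction and to 0.75 with the mean of probes.

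Of the mast cell lists, that of the connective tissue type had the lowest median. Of 14 compared members, 8 were lower, none was higher, and the median was -1.43; all 8 also lay at least 2-fold below both wild-type cocultures. Mrgprb8 and Ptgdr were not well above background on either array, and Mrgprb10 was not on the array. The receptor Mrgprb1 read -10.11 and -10.21 in mast cells alone, 0.94 and 0.90 in the wild-type cocultures, -5.18 in the labelled Pla2g3-/- coculture and -7.17 on Lpar1-/- fibroblasts. Only the wild-type cocultures were high, and the level on Lpar1-/- fibroblasts was 268-fold lower than on Lpar1+/+ fibroblasts, or 39.0-fold with normexp and 81.9-fold with the mean of its probes. Mrgprb2, the receptor through which basic peptides and many drugs activate mouse mast cells, read 2.70 and 2.66 in the wild-type cocultures and 1.02 on Lpar1-/- fibroblasts. That was 3.12-fold lower, yet well above the -3.75 and -4.24 of cells alone.

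These receptors and tryptases belong to families of similar copies, so the probe that was read matters; the sequences of the probes that stand for Mrgprb1, Mrgprb2 and Tpsab1 are given 5′ to 3′ as deposited, with mm9 positions and no capitals because no part is singled out.
Mrgprb1 probe, chr7:55702712-55702771: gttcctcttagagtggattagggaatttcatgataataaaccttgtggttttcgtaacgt
Mrgprb2 probe, chr7:55807084-55807143: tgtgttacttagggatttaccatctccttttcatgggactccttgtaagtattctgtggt
Tpsab1 probe, chr17:25480640-25480699: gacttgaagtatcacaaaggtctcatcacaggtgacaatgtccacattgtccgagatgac
The Mrgprb1 and Mrgprb2 probes shared no run longer than 7 bases, and the Tpsab1 and Tpsb2 probes none longer than 6, in the alignment without gaps that scored best. Signal from other members of these families was not tested. The other Mrgprb1 probe also read lower on Lpar1-/- fibroblasts (-9.41, not well above background) than on Lpar1+/+ fibroblasts (-4.76).

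Among the granule proteases, the tryptase Tpsab1 read -3.50 and -5.18 in cells alone, 4.21 and 4.39 in the wild-type cocultures, 0.61 in the labelled Pla2g3-/- coculture and -0.17 on Lpar1-/- fibroblasts. It was 23.7-fold lower than on Lpar1+/+ fibroblasts and fell between the cells alone and the wild-type cocultures. The membrane-bound tryptase Tpsg1 was 10.2-fold lower, from 3.05 to -0.31. The chymase Mcpt4 read 5.79 and 5.80 in the wild-type cocultures and 3.59 on Lpar1-/- fibroblasts, 4.64-fold lower, against 2.51 and 2.31 in cells alone. Cathepsin G (Ctsg) was 3.26-fold lower, at 2.81 against 4.06 and 4.52 in the wild-type cocultures. It read 4.96 and 4.51 in cells alone, so, unlike Mcpt4, it was not clearly higher in the wild-type cocultures. The tryptase Tpsb2 was 2.33-fold lower, and its difference was -0.96, under 2-fold, after quantile normalization. Hdc, which makes histamine, read 0.83 and 0.26 in cells alone, 2.75 and 2.32 in the wild-type cocultures and -0.97 on Lpar1-/- fibroblasts. This was 9.74-fold lower and below the cells alone.

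Other genes of the same list stayed within 2-fold. The chymase Cma1 differed by -0.53 and the carboxypeptidase Cpa3 by -0.07. The prostaglandin D synthases Hpgds and Ptgds differed by -0.38 and -0.07. The vesicular monoamine transporter Slc18a2 differed by 0.53 and the heparin-modifying enzyme Ndst2 by 0.89.

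Of 30 core mast cell genes, 26 lay within 2-fold, 3 were higher (10%) and 1 was lower (3.33%), and the median was 0.06. Over all compared genes 79.9% lay within 2-fold, so this count alone is no result about the list. Kit read 6.49 on Lpar1+/+ and 6.85 on Lpar1-/- fibroblasts, and the IgE receptor chain Fcer1a read 6.53 and 6.45. Ms4a2, another IgE receptor chain, differed by -0.34. Rgs13, a brake on G protein signalling, was 4.30-fold lower. Stat5a and Ikzf2, which encode transcription factors, were 2.38-fold and 3.39-fold higher, and Enpp3 was 3.74-fold higher but dim (-5.63 against -7.53), with a difference of 0.42 after normexp background correction. The mast cell identity given by the labels was borne by these markers on both arrays.

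Among 10 genes of mucosal mast cells and basophils, 5 were higher and 2 lower, with a median of 0.48. The mucosal protease Mcpt1 read -7.17 and -7.48 in cells alone, -2.85 and -3.23 in the wild-type cocultures, 1.02 in the labelled Pla2g3-/- coculture and 1.53 on Lpar1-/- fibroblasts, 27.1-fold higher than on Lpar1+/+ cells. Mcpt2 was 4.15-fold higher, from 2.02 to 4.07. For both proteases the order ran from cells alone through the wild-type cocultures to the other cocultures. The integrin subunits Itgae and Itgb7, which pair to bind E-cadherin, were 19.1-fold and 3.64-fold higher, Itgae by 4.14-fold with normexp. Itgb7 read 5.03 and 5.16 in cells alone, 3.22 and 3.25 in the wild-type cocultures and 5.12 on Lpar1-/- fibroblasts, the level of cells alone. The basophil-type protease Mcpt8 was 3.55-fold lower. Granzyme B (Gzmb) was 2.08-fold lower and differed by -0.90 after quantile normalization.

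**Figure D2:**
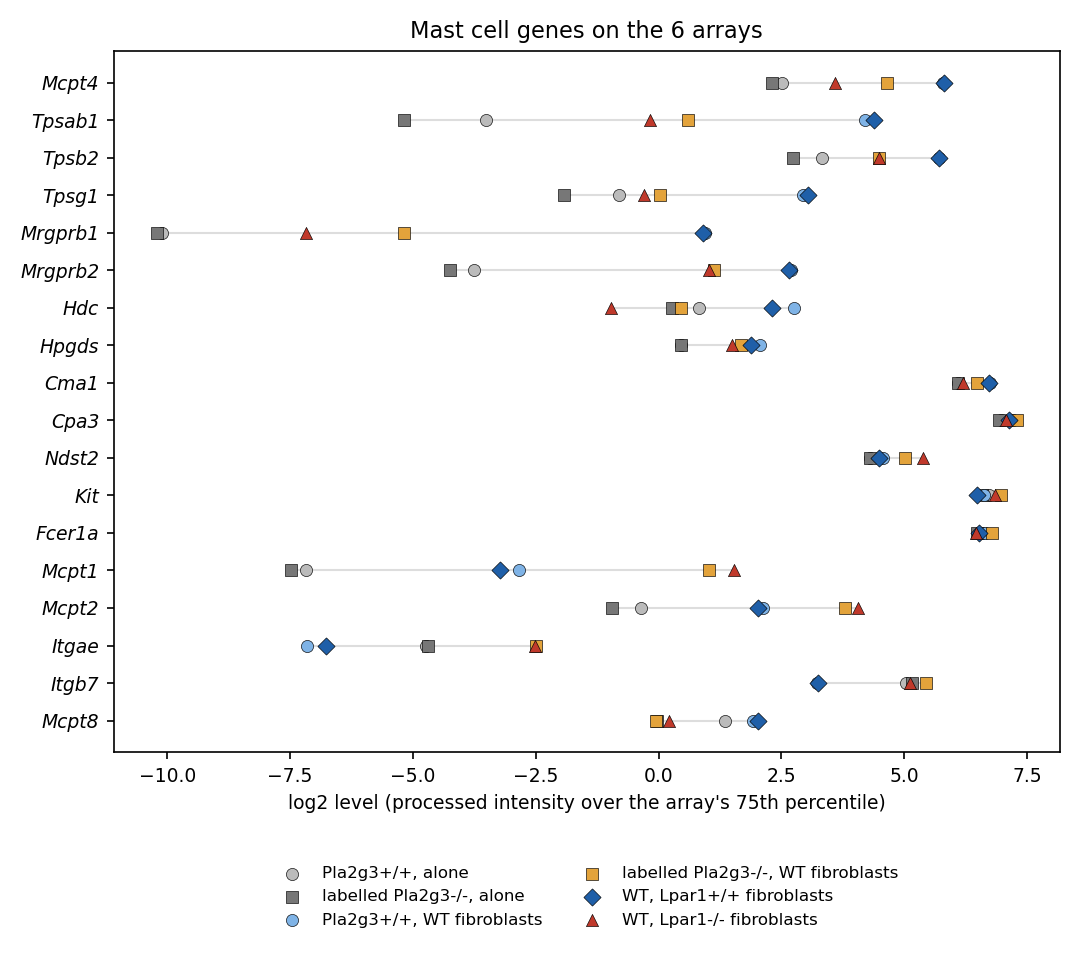
Log2 levels of 18 mast cell genes (x axis, relative to each array's 75th percentile), 1 symbol per array and no error bars because each condition had 1 array. On Lpar1-/- fibroblasts (red triangles) Mrgprb1 at -7.17, Tpsab1 at -0.17 and Mcpt4 at 3.59 sit left of both wild-type cocultures (blue), while Mcpt1 at 1.53 and Itgae at -2.51 sit right of them.

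Of 22 genes of granule exocytosis, 1 was higher (4.55%) and 3 were lower (13.6%), against 11.3% and 8.84% of all genes. Sytl2 and the syntaxin Stx11 were each 2.75-fold lower, though Stx11 differed by -0.91 against the Pla2g3+/+ coculture. Of 24 genes of heparin and glycosaminoglycan synthesis, 1 was lower and 1 higher, 4.17% each. Hs6st1, a sulfotransferase, was 2.59-fold lower and Chst15 was 2.38-fold higher. The list median was -0.29, and serglycin (Srgn), the core protein that carries granule heparin, differed by -0.25.

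Genes switched on within minutes of a stimulus made up one of the largest shifts. Of 32 immediate early genes, 24 were lower and 1 higher, with a median of -2.19. Egr2 read -0.09 and -0.16 in cells alone, 2.92 and 3.15 in the wild-type cocultures, -2.50 in the labelled Pla2g3-/- coculture and -3.92 on Lpar1-/- fibroblasts, 135-fold lower than on Lpar1+/+ fibroblasts, or 86.6-fold with normexp. Fosb read 2.31 and 2.92 alone, 4.52 and 4.96 in the wild-type cocultures and -1.54 on Lpar1-/- fibroblasts, 90.7-fold lower. Both genes were below the level of cells without fibroblasts. Nr4a1 and Egr1 were 38.6-fold and 36.7-fold lower. Egr4, not well above background on Lpar1-/- fibroblasts, was at least 69.3-fold lower, or 6.56-fold with normexp and 42.8-fold against the Pla2g3+/+ coculture. Myc was 7.34-fold lower, from 1.85 to -1.03. Jun was 2.25-fold lower, whereas Klf6 differed by -0.33 and Ier3 by 0.82. Btg2, which restrains proliferation, was the 1 member that was higher, by 3.17-fold, or 4.80-fold against the Pla2g3+/+ coculture.

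The response was looked at in promoter sequence because many of these genes are switched on through serum response factor, which binds the CArG box. RefSeq windows (GRCm38.p6, 250 bases before to 50 after the start of transcription) were at hand for 25 of the 32 genes. A CArG box was found in 2 of them, Egr2 and Zfp36, which is 8% against 1.81% of 27025 genes. The cyclic AMP response element TGACGTCA was found in 3 (Btg2, Maff and Rcan1), 12% against 2.03%. A gene was counted if any of its windows held the motif. The list was picked for the immediate early response, so these shares describe the list and not these arrays. Egr2, the member with the largest difference, has several windows, and not all of them hold a CArG box. In the Egr2 window shown, capitals mark the CArG box, which begins 72 bases before the start.
Egr2 promoter, chr10:67537619-67537918, plus strand: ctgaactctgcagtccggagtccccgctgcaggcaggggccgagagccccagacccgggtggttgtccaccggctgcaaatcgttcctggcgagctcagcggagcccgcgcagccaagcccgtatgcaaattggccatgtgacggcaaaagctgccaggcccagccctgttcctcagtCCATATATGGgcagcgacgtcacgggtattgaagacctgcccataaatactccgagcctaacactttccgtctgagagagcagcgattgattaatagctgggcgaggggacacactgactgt
A match of letters describes this window and is no evidence of binding.

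Genes that feed back on the ERK pathway, among them phosphatases and Sprouty proteins that damp it, moved the same way. Of 19 compared, 17 were lower and none higher, with a median of -2.40. Dusp6, an ERK phosphatase, read 3.11 and 3.22 in cells alone, 3.49 and 3.36 in the wild-type cocultures, -1.21 in the labelled Pla2g3-/- coculture and -0.62 on Lpar1-/- fibroblasts. It was near level in 4 arrays and 15.7-fold lower on Lpar1-/- than on Lpar1+/+ fibroblasts. Dusp8 was 58.1-fold lower, Spry1 21.2-fold, Etv5 20.5-fold and Dusp4 13.8-fold. The other Dusp8 probe differed by -2.54, and its fold was 18.4 with the mean of probes and 12.5 with normexp; that of Spry1 was 5.04 with normexp. Etv4, by contrast, differed by 0.09.

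Of 18 genes under NF-kB feedback, 11 were lower and none higher, with a median of -1.21; 8 of them also lay at least 2-fold below both wild-type cocultures. Nfkbid was 8.91-fold lower and the inhibitor Nfkbia 5.96-fold lower, from 4.59 to 2.02. Against the Pla2g3+/+ coculture these folds were 5.66 and 3.77. Cells alone had Nfkbia at 1.96 and 1.57. The subunit gene Rela differed by -0.32.

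The cytokine Tnf had the largest difference among genes well above background on both arrays. It read -1.78 and -1.80 in mast cells alone, 2.04 and 2.58 in the wild-type cocultures, -6.47 in the labelled Pla2g3-/- coculture and -7.33 on Lpar1-/- fibroblasts (probe chr17:35336795-35336854, mm9). The cocultures thus lay on opposite sides of the cells alone, and the Lpar1-/- array was 958-fold lower than the Lpar1+/+ array, or 131-fold with normexp. Of 30 cytokine genes 6 were higher and 9 lower, with a median of -0.30. Tnfsf14 was 13.7-fold lower and Il13 7.38-fold lower. Tslp and Csf2 were 6.35-fold and 3.80-fold lower, and Il33 was at least 15.3-fold lower. With normexp Il13 was 4.79-fold and Il33 2.02-fold lower. Il1b read -1.63 and -1.52 in cells alone, -5.83 and -5.61 in the wild-type cocultures and -1.94 on Lpar1-/- fibroblasts, 12.7-fold higher, or 5.17-fold with normexp. Il4 was 3.19-fold higher and also lay at the level of cells alone. Kitl, which encodes stem cell factor, was 2.25-fold higher, from -4.79 to -3.62, but differed by 0.72 after normexp background correction. Il6 differed by -0.76.

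Chemokines were mostly lower: 13 of 22 were lower and 4 higher, with a median of -1.28. Ccl7, which attracts monocytes, read 2.90 and 3.14 in cells alone, 5.87 and 5.91 in the wild-type cocultures, 0.79 in the labelled Pla2g3-/- coculture and 0.37 on Lpar1-/- fibroblasts, 46.6-fold lower. Ccl1 was 29.8-fold lower, but its other probe, well above background on both arrays, differed by only -0.75, so its fold was 7.09 with the mean of probes and its size is uncertain. Against the Pla2g3+/+ coculture Ccl1 was 17.6-fold lower. Cxcl5 was 20.4-fold lower, or 11.3-fold with normexp, and Ccl2 8.98-fold. Cxcl2 read -3.79 on Lpar1+/+ fibroblasts and -5.36 in the Pla2g3+/+ coculture and was not well above background on Lpar1-/- fibroblasts. It was at least 25.3-fold lower than on Lpar1+/+ fibroblasts and 8.51-fold lower than in the Pla2g3+/+ coculture, and 2.59-fold with normexp. Ccl9 and Ccl5 were 2.55-fold and 2.32-fold higher. Cxcl5 read -9.16 and -10.44 in cells without fibroblasts; its source in the coculture, mast cell or fibroblast, was not tested.

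**Figure D3:**
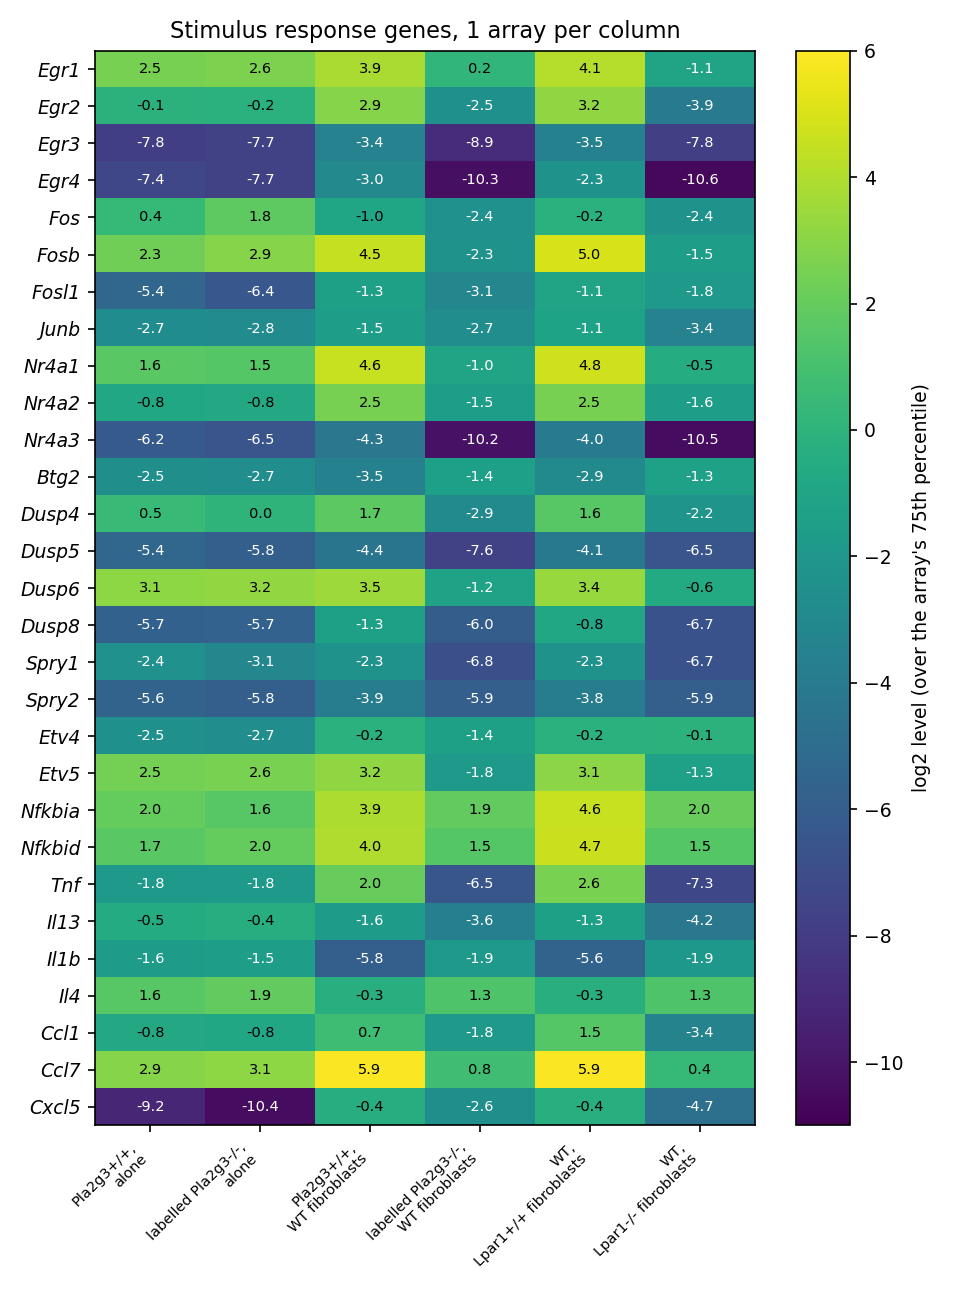
Log2 levels of 29 stimulus response genes (rows) on the 6 arrays (columns), printed in each cell and coloured from low (dark) to high (bright), relative to the array's 75th percentile. The last column, Lpar1-/- fibroblasts, is darker than both wild-type cocultures for Egr2 (-3.92 against 2.92 and 3.15), Dusp6 and Tnf, and brighter for Il1b and Il4.

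Cell cycle genes were the 1 list of 32 with every difference below 0. Of the 50 genes, 43 were lower, none was higher, and the median was -2.15; all 43 also lay at least 2-fold below both wild-type cocultures. Mki67, the proliferation marker, read 3.40 and 3.64 in cells alone, 4.75 and 4.78 in the wild-type cocultures, 2.74 in the labelled Pla2g3-/- coculture and 1.44 on Lpar1-/- fibroblasts, 10.1-fold lower. The wild-type cocultures were highest and the Lpar1-/- coculture lowest. Tk1, which salvages thymidine, was 10.3-fold lower, Top2a 10.1-fold and the mitotic cyclin Ccnb2 9.81-fold; Tk1 was 4.72-fold lower with the mean of probes. The replication helicase genes Mcm5 and Mcm7 were 5.01-fold and 2.04-fold lower, and Kif23 differed by -0.35. These levels do not say whether fewer cells were cycling or each cell carried less of the transcript, which cannot be told apart in RNA of a whole population; the same holds for every gene here.

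Cell cycle inhibitors were divided, with 5 of 27 higher and 8 lower. Cdkn1b, which encodes p27, read 2.80 and 2.84 in cells alone, 1.62 and 1.72 in the wild-type cocultures and 4.02 on Lpar1-/- fibroblasts, 4.92-fold higher. Rbl2, Sesn1 and Ccng2 were 2.40-fold to 2.78-fold higher. Gadd45b was 13.2-fold lower, and Cdkn1a, which encodes p21, was 3.19-fold lower.

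Late cell cycle genes are known to carry CCAAT boxes and the element TTTGAA in their promoters. Windows were at hand for 40 of the 50 genes. CCAAT, on either strand, was found in 30 of them (75%, against 41.1% of 27025 genes) and TTTGAA in 16 (40%, against 20.2%). Top2a and Ccnb2 are shown because they were among the lowest members and hold both; capitals mark CCAAT (or ATTGG, the other strand) and TTTGAA (or TTCAAA).
Top2a promoter, chr11:99024140-99024439, minus strand: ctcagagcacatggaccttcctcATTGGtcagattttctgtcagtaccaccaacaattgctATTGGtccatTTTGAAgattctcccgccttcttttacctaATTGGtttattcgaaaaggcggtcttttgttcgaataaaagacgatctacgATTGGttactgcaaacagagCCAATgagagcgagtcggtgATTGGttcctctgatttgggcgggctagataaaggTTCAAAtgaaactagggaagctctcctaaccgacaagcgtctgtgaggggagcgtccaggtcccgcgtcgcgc
Ccnb2 promoter, chr9:70421505-70421804, minus strand: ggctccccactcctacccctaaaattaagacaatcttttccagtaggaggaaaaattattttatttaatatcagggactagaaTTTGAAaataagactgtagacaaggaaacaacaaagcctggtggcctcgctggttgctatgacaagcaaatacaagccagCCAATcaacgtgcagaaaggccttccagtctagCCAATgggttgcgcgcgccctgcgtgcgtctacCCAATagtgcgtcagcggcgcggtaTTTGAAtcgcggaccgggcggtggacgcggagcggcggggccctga
Top2a holds 6 CCAAT matches in this window and Ccnb2 holds 3. The list was picked for the cell cycle, so its shares of windows with CCAAT and TTTGAA do not describe these arrays.

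Cholesterol and fatty acid synthesis genes were lower almost throughout: 29 of 33 were lower, none was higher, and the median was -1.81. Fdps, which makes farnesyl pyrophosphate on the way to sterols, read 4.11 and 4.32 in cells alone, 4.56 and 4.72 in the wild-type cocultures, 2.04 in the labelled Pla2g3-/- coculture and 1.91 on Lpar1-/- fibroblasts, 7.01-fold lower. Here the wild-type cocultures and the cells alone were close and the other cocultures apart. Hsd17b7 was 10.5-fold lower (6.26-fold with the mean of probes), Cyp51 9.48-fold and Mvd 7.95-fold. The regulators Srebf2 and Srebf1 were 2.09-fold and 2.07-fold lower. The fatty acid desaturase Scd1 was 6.30-fold lower, while Fads1 differed by 0.73. The sterol regulatory element bound by SREBP, searched on both strands with 1 core form, was found in none of the 22 windows at hand and in 0.27% of all genes.

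Genes of the amino acid and unfolded protein responses were lower in 21 of 34 cases and higher in 1, with a median of -1.29; 15 also lay at least 2-fold below both wild-type cocultures. Aldh1l2 was 8.57-fold lower and the arginine transporter Slc7a1 5.29-fold. Trib3, a pseudokinase induced by ATF4, read 4.96 and 4.78 in cells alone, 3.16 and 3.79 in the wild-type cocultures, 0.68 in the labelled Pla2g3-/- coculture and 1.51 on Lpar1-/- fibroblasts, 4.84-fold lower than on Lpar1+/+ fibroblasts and 3.14-fold lower than in the Pla2g3+/+ coculture. Chac1 was 4.03-fold lower. Both genes were highest without fibroblasts. The chaperone Hspa5 was 2.97-fold lower, and Atf4 itself differed by -0.98. Ddit4, an inhibitor of growth signalling, was the 1 higher gene, by 3.27-fold.

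ATF4 acts through an element with the letters TGATGNAA, which was searched on both strands. It was found in 7 of the 29 windows at hand, 24.1%, against 4.51% of all genes. Trib3 and Chac1 are shown as the lowest members that hold it; capitals mark the match, here on the other strand.
Chac1 promoter, chr2:119350992-119351291, plus strand: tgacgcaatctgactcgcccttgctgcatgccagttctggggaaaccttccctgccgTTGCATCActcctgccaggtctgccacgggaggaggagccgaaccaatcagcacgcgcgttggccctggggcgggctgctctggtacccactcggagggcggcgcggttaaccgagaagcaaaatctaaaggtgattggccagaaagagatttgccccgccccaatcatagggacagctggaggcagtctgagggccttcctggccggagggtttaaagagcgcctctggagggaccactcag
Trib3 promoter, chr2:152344011-152344310, minus strand: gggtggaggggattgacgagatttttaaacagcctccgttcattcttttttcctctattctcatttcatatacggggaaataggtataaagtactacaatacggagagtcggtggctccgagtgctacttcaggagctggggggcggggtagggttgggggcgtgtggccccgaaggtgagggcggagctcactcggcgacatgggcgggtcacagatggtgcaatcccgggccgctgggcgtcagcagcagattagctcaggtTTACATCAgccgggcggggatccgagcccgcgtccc
The match lies 193 bases before the start in Chac1 and 14 after it in Trib3. Because the list was picked for these responses, its share of windows with the element does not describe these arrays.

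Growth genes showed a smaller shift. Of 31 genes of ribosome biogenesis and MYC-driven growth, 10 were lower and none higher, with a median of -0.49. Mycn was 14.1-fold lower (7.88-fold with normexp), and the transferrin receptor Tfrc was 4.70-fold lower. Of 32 genes of hypoxia and glycolysis, 9 were lower and 2 higher. The peptide hormone gene Adm was 11.8-fold lower (3.68-fold with normexp) and the enolase Eno2 6.81-fold lower, whereas Gapdh differed by -0.46. Of 35 lysosomal genes 6 were lower and 1 higher; the protease Ctss was 6.91-fold lower and Ctsl 2.52-fold higher.

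The interferon response list leaned the other way, with 10 of 35 genes higher and 1 lower. Its median of 0.30 became -0.068 when the mean of a gene's probes was used, so the list has no settled direction. Oasl2 was 4.95-fold higher, Parp14 3.89-fold, Oasl1 3.72-fold and the GTPase Gbp2 3.22-fold. Oasl2 read -2.07 and -1.85 in cells alone, -2.97 and -2.85 in the wild-type cocultures and -0.55 on Lpar1-/- fibroblasts. By contrast, the classical members Isg15 and Ifit1 differed by -0.73 and -0.49. The 1 lower gene, Gbp3, was 2.17-fold lower but differed by -0.11 against the Pla2g3+/+ coculture. The interferon-stimulated response element, searched on both strands, was found in 14 of 26 windows, 53.8%, against 3.99% of all genes. The list was picked for the interferon response, so this share describes the list and not these arrays. Isg15, Ifit1 and Gbp3, which were not higher, hold the element. Gbp2 is shown as a higher member that holds it; capitals mark the match, on the other strand.
Gbp2 promoter, chr3:142620413-142620712, plus strand: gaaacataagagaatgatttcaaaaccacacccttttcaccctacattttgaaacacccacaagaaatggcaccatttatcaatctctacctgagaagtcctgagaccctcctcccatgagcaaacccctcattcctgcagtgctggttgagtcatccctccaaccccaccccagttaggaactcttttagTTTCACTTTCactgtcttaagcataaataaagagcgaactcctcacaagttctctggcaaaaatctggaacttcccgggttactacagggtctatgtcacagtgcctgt
Of 20 antigen presentation genes, 19 lay within 2-fold and the lipid-presenting Cd1d1 was 4.97-fold higher, or 3.18-fold with the mean of probes.

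Lipid mediator genes other than those of lysophosphatidic acid gave a mixed picture. Of 28 eicosanoid genes, 4 were higher and 4 lower, 14.3% each, close to the 11.3% and 8.84% of all genes. The leukotriene receptors Cysltr2 and Ltb4r1 were 4.16-fold and 4.01-fold higher, although Cysltr2 was dim and differed by 0.49 after normexp background correction. Prostacyclin synthase (Ptgis) was 3.59-fold higher, with a difference of 0.90 when its probes were averaged, and the cyclooxygenase Ptgs2 was 2.72-fold higher. The prostacyclin receptor Ptgir was 2.26-fold lower. Of 11 sphingosine 1-phosphate genes, the kinase Sphk1 was 6.94-fold lower and the exporter Spns2 3.49-fold higher.

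Adhesion genes also went both ways, with 8 of 34 higher and 5 lower. Besides Itgae, E-cadherin (Cdh1), its ligand, was 11.3-fold higher: it read -3.83 and -4.49 in cells alone, -7.81 and -7.45 in the wild-type cocultures and -3.95 on Lpar1-/- fibroblasts. Itgax was 6.32-fold higher. Itga9 and Itgb2 were 10.1-fold and 5.68-fold lower. With normexp Cdh1 was 2.37-fold higher and Itga9 4.04-fold lower. Of 24 genes of survival and death, 3 were higher (12.5%) and 4 lower (16.7%). Bmf, which promotes cell death, read 0.31 and 0.17 in cells alone, -3.39 and -3.10 in the wild-type cocultures and 1.21 on Lpar1-/- fibroblasts, 19.8-fold higher. The survival gene Bcl2a1d was 20.6-fold lower, Bok was 13.7-fold higher, and Bcl2 differed by -0.38. With normexp the folds of Bcl2a1d and Bok were 3.93 and 5.20.

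Transcripts typical of fibroblasts were present on all coculture arrays. Col1a1, a main collagen of fibroblasts, read -7.67 and -8.52 in cells alone, 1.56 and 1.77 in the wild-type cocultures, 0.84 in the labelled Pla2g3-/- coculture and 2.16 on Lpar1-/- fibroblasts. It was within 2-fold between the Lpar1 arrays, as were Col1a2 (-0.08), Col3a1 (-0.69) and Sparc (-0.47). Of 47 fibroblast and matrix genes compared, 13 were higher and 6 lower, with a median of 0.15. The summed level of the list (intensity over the 75th percentile) was 153 on the Lpar1+/+ and 101 on the Lpar1-/- array, against 161 in the Pla2g3+/+ coculture, 97.5 in the labelled Pla2g3-/- coculture and 79.0 and 88.5 without fibroblasts. Much of it came from Vim and S100a4, which mast cells also express: together they summed to 97.7 on the Lpar1+/+ and 32.0 on the Lpar1-/- array, and to 35.3 and 36.4 without fibroblasts. Without these 2 genes the list summed to 55.4 on the Lpar1+/+ and 68.6 on the Lpar1-/- array, 53.0 and 50.5 in the other cocultures, and 43.7 and 52.0 without fibroblasts. Cultures with no fibroblasts thus reached much of this sum too, so it does not measure fibroblast RNA. Lum was not well above background on either Lpar1 array. The part that fibroblast RNA takes in the differences described here was not tested.

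Within this list single genes diverged widely. Thy1, a surface protein of fibroblasts and other cells, read -2.36 and -4.76 in cells alone, -7.71 and -6.85 in the wild-type cocultures, -9.20 in the labelled Pla2g3-/- coculture and 0.76 on Lpar1-/- fibroblasts. The Lpar1-/- array stood above all the others, at 196-fold over the Lpar1+/+ array, or 42.1-fold with normexp; against the Pla2g3+/+ coculture it was 354-fold. Timp3 and Timp1, inhibitors of matrix proteases, were 8.35-fold and 6.49-fold higher, and the transcription factor Twist2 was 5.29-fold higher. Timp3 was highest without fibroblasts, at 1.72 and 1.54, against -3.88 and -4.06 in the wild-type cocultures and -0.996 on Lpar1-/- fibroblasts. Timp1, by contrast, read -7.08 and -7.09 in cells alone. Postn was at least 15.9-fold higher, or 2.07-fold with normexp. S100a4, Col12a1 and vimentin (Vim) were 3.44-fold, 2.79-fold and 2.79-fold lower.

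Targets of YAP and of serum response factor diverged as well: 7 of 32 were higher and 5 lower, and the median was 0.00. Actg2, a smooth muscle actin, read -9.05 and -8.67 in cells alone, -7.93 and -7.35 in the wild-type cocultures, -8.33 in the labelled Pla2g3-/- coculture and -1.09 on Lpar1-/- fibroblasts, 76.7-fold higher, or 10.7-fold with normexp. The contractile genes Myl9 and Acta2 were 24.6-fold and 6.75-fold higher, and the matricellular Ccn2 was 11.5-fold higher; with normexp Myl9 and Ccn2 were 15.5-fold and 5.44-fold higher. All 4 were highest on the Lpar1-/- array. Ccn2 is a known target of YAP, as are Ankrd1, Ccn4 and Ccn1, which went the other way at 3.41-fold, 3.25-fold and 2.37-fold lower; Ankrd1 was 2.15-fold lower against the Pla2g3+/+ coculture. Of 29 genes of TGF-beta signalling, 4 were higher and 3 lower, 13.8% and 10.3%, close to the 11.3% and 8.84% of all genes. Pmepa1, a feedback inhibitor, was 11.8-fold higher, or 4.13-fold with normexp.

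**Figure D4:**
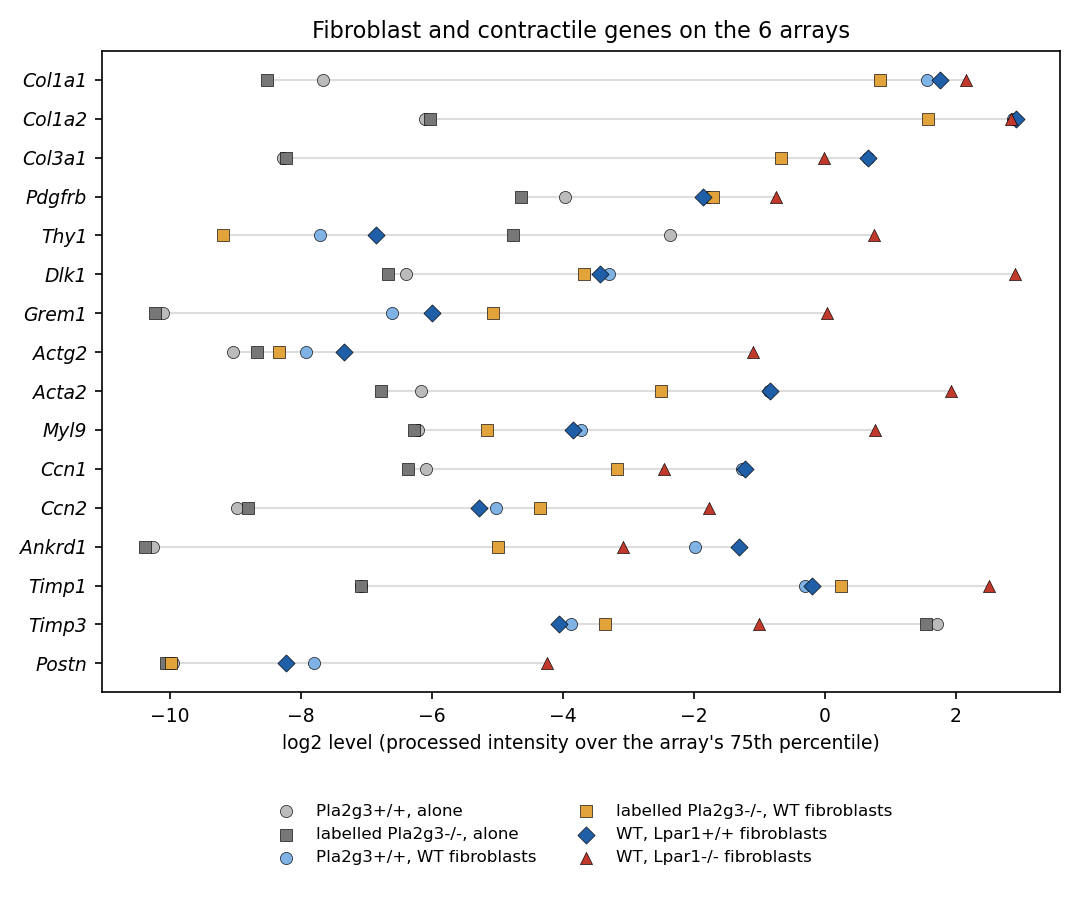
Log2 levels of 16 fibroblast and contractile genes (x axis, relative to each array's 75th percentile), 1 symbol per array and no error bars because each condition had 1 array. Col1a1 lies between 0.84 and 2.16 on the 4 cocultures, whereas Thy1 (0.76), Dlk1 (2.91), Grem1 (0.04) and Actg2 (-1.09) on Lpar1-/- fibroblasts (red triangles) lie far right of every other coculture.

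The genes with the largest differences outside these lists fell into similar patterns. Dlk1, a Notch-related protein of immature mesenchymal cells, read -6.39 and -6.68 in cells alone, -3.30 and -3.43 in the wild-type cocultures, -3.67 in the labelled Pla2g3-/- coculture and 2.91 on Lpar1-/- fibroblasts, 80.8-fold higher. Grem1, a secreted antagonist of bone morphogenetic proteins, was 66.1-fold higher, from about -6.0 to 0.04. The cardiac troponin gene Tnnt2 was 31.6-fold higher. With normexp Grem1 and Tnnt2 were 19.4-fold and 8.01-fold higher, and against the Pla2g3+/+ coculture Grem1 was 101-fold higher. For these 3 genes the Lpar1-/- array stood above all the others.

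A further set was higher on Lpar1-/- fibroblasts but had signal in cells alone. Cd24a, a surface glycoprotein, read 3.57 and 2.04 in cells alone, -3.52 and -3.44 in the wild-type cocultures, 0.22 in the labelled Pla2g3-/- coculture and 1.94 on Lpar1-/- fibroblasts, 41.8-fold higher. Ahrr, the repressor of the aryl hydrocarbon receptor, read 2.83 and 3.02 alone, -3.54 and -3.37 in the wild-type cocultures and 1.84 on Lpar1-/- fibroblasts, 37.1-fold higher. Nxpe4, Fam181b and Tbx6 were 38.6-fold, 30.4-fold and 28.6-fold higher with the wild-type cocultures below cells alone. The other Tbx6 probe did not show that order. It read -3.82 and -3.70 in cells alone and -3.39 and -3.72 in the wild-type cocultures, and differed by 2.02 between the Lpar1 arrays. The metalloprotease gene Adamts15, not well above background on Lpar1+/+ fibroblasts, was at least 63.5-fold higher and read -1.62 and -1.77 in cells alone; it was 6.03-fold higher with normexp, and Tbx6 was 10.8-fold higher with the mean of probes. Outside this set, the cornified envelope genes Lce1g and Lce1i were 109-fold and 32.7-fold higher, or 11.9-fold and 7.05-fold with normexp, and Lce1i was 15.5-fold higher with the mean of probes. In cells alone they were at or near background, at -8.96 and -9.21 for Lce1g and -8.83 and -8.08 for Lce1i. They belong to a family of near-identical copies and are uncertain as single genes.

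On the lower side, the G protein subunit Gnai1 read -3.64 and -4.0 in cells alone, 1.45 and 1.23 in the wild-type cocultures, -3.38 in the labelled Pla2g3-/- coculture and -4.88 on Lpar1-/- fibroblasts, 69.4-fold lower. Wfdc17 was 82.1-fold lower and Rasgef1b 44.0-fold lower. The lectin receptor Clec10a read 2.44 and 2.64 alone, 4.19 and 4.35 in the wild-type cocultures and -1.03 on Lpar1-/- fibroblasts, 41.7-fold lower. Syt13, a synaptotagmin, read -0.34 and -0.23 in the wild-type cocultures and -2.55 in the labelled Pla2g3-/- coculture; it was at least 299-fold lower on Lpar1-/- fibroblasts, where it was not well above background. The transcription factor genes Spib and Wt1 were at least 83.1-fold and 51.9-fold lower. Pcdh10 gave a bound of at least 937-fold lower, but it read -6.45 in the Pla2g3+/+ coculture and 1.71 on Lpar1+/+ fibroblasts, a difference of 8.16 between wild-type arrays, so that value rests on the Lpar1+/+ array alone; against the Pla2g3+/+ coculture it was 3.27-fold. With normexp the folds were 32.4 for Gnai1, 19.4 for Wfdc17, 21.9 for Rasgef1b, 24.1 for Syt13, 6.88 for Spib, 4.73 for Wt1 and 63.7 for Pcdh10. Against the Pla2g3+/+ coculture those of Rasgef1b, Spib and Wt1 were 29.2, 51.7 and 27.1, and with the mean of probes that of Pcdh10 was 61.6.

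Markers of other blood cells moved in part with the comparison. Of 27 neutrophil and eosinophil genes, 14 were higher and 1 lower, with a median of 1.14. The summed level of the list was 78.4 on the Lpar1+/+ and 80.1 on the Lpar1-/- array. The 1 lower member was Ctsg, also on the connective tissue list, which read 4.52 on Lpar1+/+ and 2.81 on Lpar1-/- fibroblasts. The sum includes Ctsg and was not computed without it. Epx and Ear2 were not well above background. The eosinophil granule gene Prg2 read 0.45 and -4.91 in cells alone, -7.52 and -6.66 in the wild-type cocultures and -3.66 on Lpar1-/- fibroblasts, 7.99-fold higher, or 2.53-fold with normexp and 14.5-fold against the Pla2g3+/+ coculture. The neutrophil granule genes Ltf and Camp were 5.54-fold and 4.95-fold higher, and the 2 cultures without fibroblasts themselves differed for both, at 0.49 and -3.16 for Ltf. Their part in the differences of other genes was not tested.

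Of 23 macrophage and dendritic cell genes, 8 were lower and 3 higher. The mannose receptor Mrc1 was 37.7-fold lower (5.30-fold with normexp), from -2.37 to -7.60, and Cd68 was 8.21-fold lower, while Cx3cr1 was 7.24-fold higher and stood at 4.19 and 4.08 in cells alone. The summed level was 18.8 on the Lpar1+/+ and 40.3 on the Lpar1-/- array, but Cx3cr1 alone gave 4.88 and 35.3 of these. Without it the list summed to 13.9 on the Lpar1+/+ and 5.02 on the Lpar1-/- array, 14.5 in the Pla2g3+/+ coculture, 5.76 in the labelled Pla2g3-/- coculture, and 7.29 and 4.35 in cells alone. Csf1r and Adgre1 differed by -0.26 and 0.05. Among the remaining marker lists, 1 of 14 platelet genes was higher and 1 lower, none of 13 lymphoid genes was higher and 2 were lower, and 3 of 10 erythroid genes were higher and 1 lower. The platelet gene Gp9 was 6.69-fold lower and the globin Hbb-bt 6.83-fold higher. Hbb-bt was dim on the Lpar1+/+ array (-7.95) and differed by 0.66 with normexp. The erythroid genes Klf1 and Car1 also fell within 2-fold under an alternative, Klf1 to 0.41 with normexp and Car1 to 0.89 against the Pla2g3+/+ coculture. Lymphoid genes summed to 1.51 and 1.27 and erythroid genes to 2.06 and 1.31, against 1121 and 1257 for the mast cell core.

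**Figure D5:**
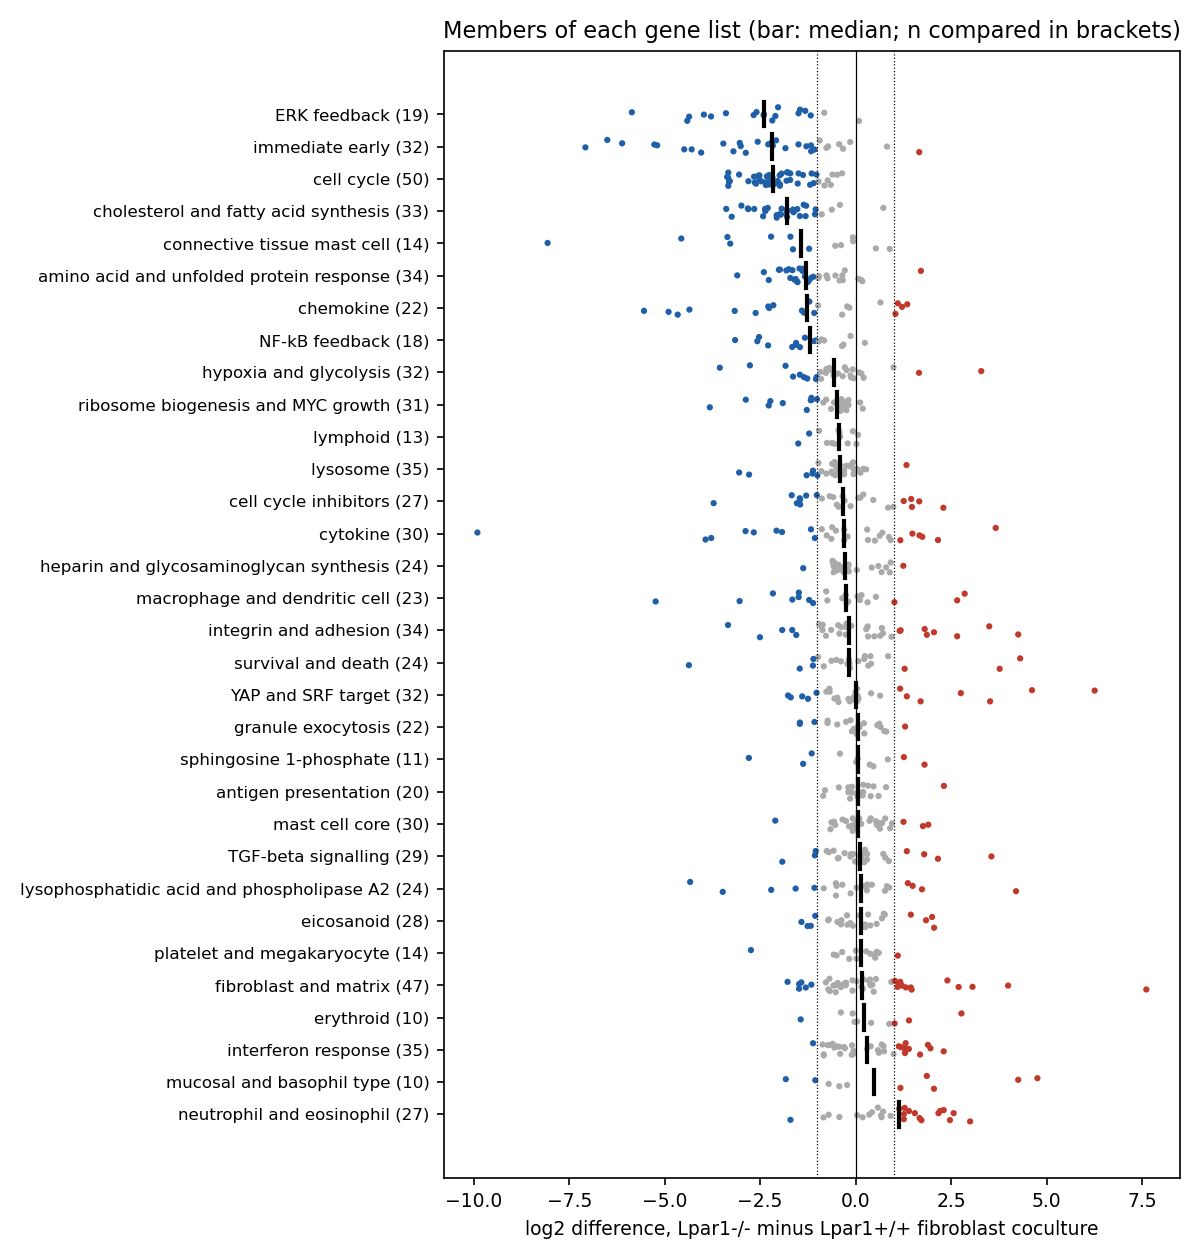
Each point is 1 gene of the list named on the y axis, placed by its log2 difference between Lpar1-/- and Lpar1+/+ fibroblast coculture (x axis); bars are medians, dotted lines mark 2-fold, and the number of genes compared is in brackets. The ERK feedback, immediate early, cell cycle and cholesterol lists have medians of -2.40, -2.19, -2.15 and -1.81, and the neutrophil and eosinophil list has the highest median at 1.14.

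The same genes were read in 2 comparisons that use none of these arrays. The first sets a coculture against cells alone, which were scanned in a separate run and have no stem cell factor in their labels. The difference of the Pla2g3+/+ coculture from Pla2g3+/+ cells alone correlated with that of the Lpar1 comparison at r = -0.46 (Spearman rho -0.41) over 22499 genes, which are not independent replicates. Of 2940 genes higher in that coculture than in cells alone, 35.2% were lower on Lpar1-/- fibroblasts, and they made up 48.7% of all genes lower there. Of 1666 genes lower in that coculture, 55.8% were higher on Lpar1-/- fibroblasts, 35.7% of all genes higher there. Over all 22499 genes, 2603 were higher and 2125 lower in the Lpar1 comparison, and 2940 were higher and 1666 lower in that coculture.

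The difference of the labelled Pla2g3-/- coculture from the Pla2g3+/+ coculture correlated with the Lpar1 comparison at r = 0.85 (rho 0.81) over 22420 genes. Of 2045 genes higher there, 85.1% were also higher on Lpar1-/- fibroblasts, 65.6% of those higher in the Lpar1 comparison. Of 2339 genes lower there, 65.8% were also lower, 72.6% of those lower in the Lpar1 comparison. Over all 22420 genes, 2653 were higher and 2118 lower in the Lpar1 comparison. Genes higher in one and lower in the other numbered 2 and 35. Thy1, Dlk1, Myl9 and Acta2 were apart from this pattern: on the labelled Pla2g3-/- array they read -9.20, -3.67, -5.16 and -2.50, each below the Pla2g3+/+ coculture, and 0.76, 2.91, 0.78 and 1.93 on Lpar1-/- fibroblasts. These 4 genes were picked after their values were seen.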

How the data were processed

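Per the file headers, the authors extracted each 1-colour array with Agilent Feature Extraction 12.1.1.1, giving a background-subtracted processed intensity per spot with positions in mm9; the deposited value table holds the same signal divided by a constant near each array's 75th percentile and was used only to check this. Levels computed here were log2 of processed intensity minus the array's 75th percentile over 43020 noncontrol spots. Outlier spots (84 to 115) were dropped, and spots of a probe were averaged (39416 probes kept). Of the noncontrol spots, 33476 were named by accession, 2686 by symbol and 12 by synonym through RefSeq genes (GRCm38.p6), and 6846 kept the array's name. The brightest probe over the 6 arrays stood for a gene. A gene was compared if that probe was well above background (in at least 0.5 of its spots) on either array. A side not well above background was raised to that array's lowest such signal, giving "at least" folds. Calls were 2-fold differences. The script was tested on simulated data. Precision is limited by 1 array per group.

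Named genes were 20 fixed genes, the 15 highest and 15 lowest measured on both arrays and the 5 largest bounds each way outside both wild-type cocultures, and up to 4 genes per direction past 2-fold in each of 32 lists. Further list members are named within their group, chosen after their values were seen. Members and lists were chosen with earlier results of these data known. Alternatives were normexp (limma 3.58.1, R 4.3.3, offset 50), quantile normalization, other filters on dim probes, the mean of probes, 50 added to the signal, and the Pla2g3+/+ coculture as wild type. Other tools were Python 3.11.15, numpy 2.4.6 and pandas 2.3.3. Promoter windows come from RefSeq.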

Additional observations from a re-analysis of the deposited data

How the results depend on the processing

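No paired analysis was possible because each condition had 1 array and no replicate number. Leaving out a replicate, and the slide as a block, were not run for the same reason: 1 array per group. The count of higher genes, 2768, was 1593 with normexp background correction and 1663 with 50 added to the signal, and the count above both wild-type cocultures, 2345, was 1373 and 1444. Both settings add 50 to every spot, which by construction draws differences of dim genes towards 0. The counts of lower genes stayed within 1.5 times under all alternatives run. The share of calls that were higher stayed between 52.4% and 56.2%. Of the 32 list medians, 5 changed sign under at least 1 alternative: interferon response to -0.068 with the mean of probes, integrin and adhesion from -0.18 to 0.21 against the Pla2g3+/+ coculture, and TGF-beta signalling, YAP and SRF targets and granule exocytosis from medians of 0.10, 0.00 and 0.05. Of 197 named genes past 2-fold, 22 fell within it with normexp, 23 with 50 added, 5 with quantile normalization and 4 with the mean of probes; of 196 that could be compared, 8 did so against the Pla2g3+/+ coculture. The folds of these genes were more than 1.5 times smaller for 72 with normexp and 68 with 50 added; they moved that far for 18 with the mean of probes (17 smaller, 1 larger), 20 against the Pla2g3+/+ coculture (15 smaller, 5 larger) and 9 without the filter on dim probes (all larger), and for none with quantile normalization. Among 49 named genes with several probes, Ltbp1, Pla2g3 and Ptgis had probes of opposite sign, none past 2-fold both ways. Without replicates, genes near 2-fold cannot be separated from the spread between cultures.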
